A study of Sus scrofa with 8 samples.

Results

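The genes described here encode the matrix metalloproteinases (MMP), the ADAM proteases, the ADAMTS proteases, the ADAMTS-like proteins (ADAMTSL) and the tissue inhibitors of metalloproteinases (TIMP) in pig liver. They were chosen by symbol alone, as every gene named MMP, TIMP, ADAMTS, ADAMTSL or ADAM followed by a number and nothing after it. This gave 61 genes of the 18103 in the expression table, of which 1 MMP gene was left out, so that 60 members remained, with 17 MMP, 4 TIMP, 19 ADAMTS, 5 ADAMTSL and 15 ADAM genes. All 60 had the same gene ID and symbol in the RefSeq annotation of Sscrofa11.1, from which the positions below were taken.

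Hepatic RNA of male Landrace x Large White pigs was sequenced in 8 libraries. In the initial state (labelled Control, condition healthy) the animals were 4 months old. In steatosis (labelled Steatosis) they were 6 months old and had received for 2 months a diet enriched in saturated fat, cholesterol and sodium cholate, deficient in methionine and restricted in choline. Each group had 4 libraries, and each library was a pool of RNA from 2 pigs, so a value is the mean of a pool and the SD is the spread over 4 pools. The study sampled its animals at the start by biopsy through laparotomy and at the end after euthanasia, so diet, age and way of sampling cannot be told apart in any difference below. Breed and sex were the same in both groups, and the study describes the steatosis animals as those of the initial state after the diet.

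As background, MMPs are zinc proteases that cut collagens and other proteins of the extracellular matrix, and most are made as inactive precursors. ADAMs are membrane proteins, several of which cut other membrane proteins and release their outer part. ADAMTS proteases are secreted and process procollagens, proteoglycans and von Willebrand factor, while ADAMTS-like proteins share their binding modules but have no protease domain. TIMPs block the active site of these enzymes. In liver, hepatic stellate cells, macrophages, endothelium and bile duct epithelium are known sources of many of them, and the balance of proteases and TIMPs is known to matter for the turnover of scar matrix.

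Expression is given as FPKM (fragments per kilobase of transcript, scaled to the mapped fragments of each library), which is per length and so can be compared between genes. The change is given as the log2 fold change of FPKM + 0.1, steatosis against the initial state, which understates the change of genes with low values. The 4 Control libraries did not stand equally close to each other. Pool 1 held transcripts of skeletal muscle and stomach mucosa, with summed FPKM of 2527 and 1471 over 5 markers each, against at most 18.67 and 23.71 in the other 3 Control pools and 0.35 and 0.29 in steatosis. Pool 4 had the highest summed FPKM of the 5 hepatocyte markers, 91241 against 51214 to 64189 in the other 7 libraries. Most of this difference was ALB, with 71002.95 FPKM there against 33168.23 to 45743.23 in the other 7 libraries. APOA1 was also highest in pool 4, while FGB, SERPINA1 and TTR were highest in other libraries. Pool 4 also had the lowest Control value of 30 of the 35 members tested (85.7%, against 51.1% of all genes tested). Relative depth, read from the lowest FPKM step of genes of 900 to 1100 bp, was 95.6% to 100% of the deepest library.

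The levels covered a wide range. MMP19 was the most abundant member in both groups, with 63.1 ± 11.8 FPKM in the initial state and 88.5 ± 3.75 in steatosis (SD, n = 4). ADAMTSL4, MMP14 and TIMP3 were the other members with a mean over 10 FPKM in both groups, which 4 members reached. At the other end, 25 of the 60 members did not reach 0.3 FPKM in at least 4 of the 8 libraries and were not tested, while 47 were above 0 in all 8 libraries. The 35 that passed were 9 MMP, 3 TIMP, 10 ADAMTS, 4 ADAMTSL and 9 ADAM genes.

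**Figure D1:**
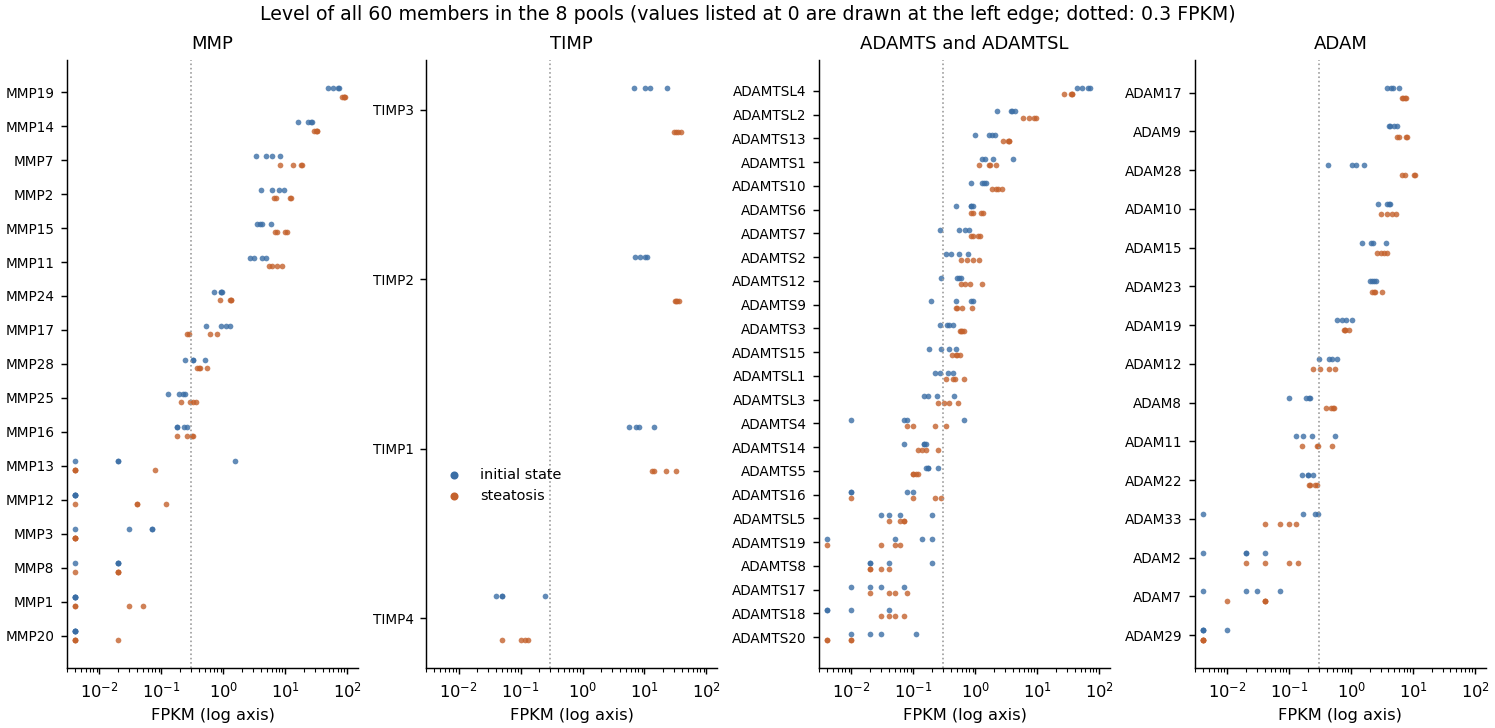
FPKM (horizontal log axis) of the 60 members in the 8 pools, 1 row a gene and 1 point a pool, blue for the initial state and orange for steatosis, with values listed at 0 drawn at the left edge. MMP19, ADAMTSL4, MMP14 and TIMP3 lie furthest to the right, and 25 members lie mostly left of the dotted line at 0.3 FPKM.

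The members called higher included 2 of the 3 tested TIMPs and 0 of the 9 tested MMPs. Differential expression was called at an adjusted p under 0.01 (limma, Benjamini-Hochberg over 13175 genes) with a log2 fold change beyond 1, and 6 of the 35 members tested (17.1%) were called higher in steatosis, where 6.01% of all genes tested were. The 6 were TIMP2, TIMP3, ADAM28, ADAM8, ADAMTS13 and ADAMTSL2. ADAM8 passed the filter through its steatosis pools alone, and without it 5 of 34 (14.7%) were called. The 6.01% over all genes tested was not restricted in this way. With the pool as a replicate block 4 were called, TIMP2, TIMP3, ADAM28 and MMP7, so that 1 of the 9 MMPs was among them and ADAM8, ADAMTS13 and ADAMTSL2 were not. No member was called lower, where 0.334% of all genes tested were, although 2 members (ADAMTSL4 and MMP17) were lower at an unadjusted p under 0.05. By adjusted p under 0.05 with no limit on the fold change, 16 members (45.7%) were higher, against 26.7% of all genes tested, and 1 (2.86%, ADAMTSL4) was lower, against 2.28%. The pools of the groups did not overlap in 14 members that were higher (40%, against 29.6% of all genes tested) and in 1 that was lower (2.86%, against 2.53%). The median log2 fold change was 0.51 over the 35 members and 0.25 over all genes tested, and it was 1.49 for the TIMPs, 0.63 for ADAMTS, 0.46 for MMP, 0.46 for ADAM and 0.44 for ADAMTSL. With each library divided by its median ratio to the geometric mean library, the median over all genes moved to -0.02 and that of the members to 0.27, and the calls became 2 higher (TIMP2 and ADAM28) and 1 lower (ADAMTSL4). The shares of 6.01% and 0.334% belong to the main fit. Those of all genes called under this scaling or with the replicate block are not given here.

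**Figure D2:**
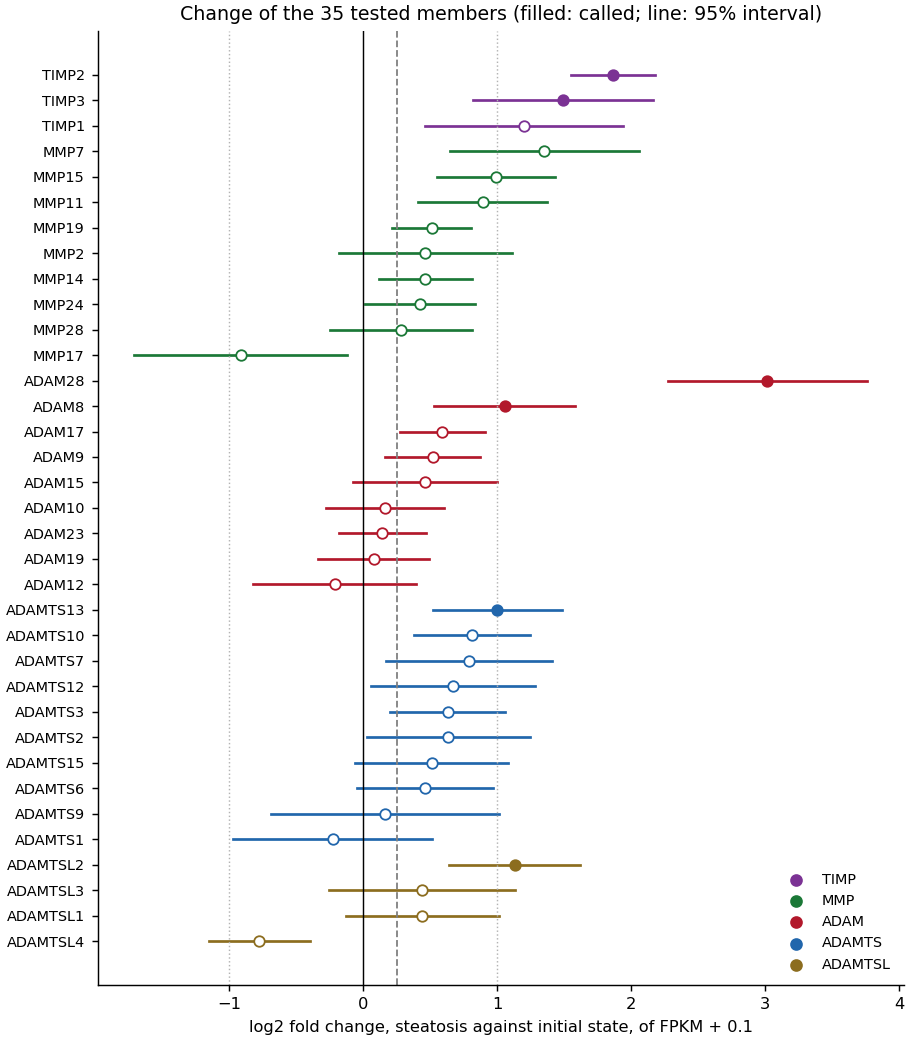
Log2 fold change of FPKM + 0.1 (horizontal axis, steatosis against the initial state, n = 4 pools each) of the 35 members tested, ordered by family and size, with 95% intervals; filled points are the 6 called members, the dashed line is the median of all genes tested at 0.25 and dotted lines mark the fold limit. The 3 TIMPs and most proteases lie right of 0, while ADAMTSL4, MMP17, ADAM12 and ADAMTS1 lie left of it.

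Among the inhibitors, TIMP2 had the lowest adjusted p of the 35 members tested. TIMP2 blocks MMPs broadly and also takes part in the activation of pro-MMP2 by MMP14 at the cell surface. TIMP2 (gene ID 396988, chr12:3254794-3300835, around CEP295NL, which had at most 0.05 FPKM in any library) had 10.33, 10.94, 8.57 and 6.95 FPKM in Control pools 1 to 4 and 33.95, 30.67, 35.65 and 32.70 in Steatosis pools 1 to 4. Every steatosis pool lay above every Control pool, and the ratio of the lowest of them to the highest Control value was 2.8. The mean went from 9.2 ± 1.8 to 33.2 ± 2.1 FPKM, and the fitted log2 difference was 1.86 (SE 0.14, 95% interval 1.55 to 2.18, adjusted p = 3.77e-05). The call held with each library left out (1.74 to 1.95) and under each scaling, filter and pseudocount tried. Limma's treat test, which asks whether the change itself exceeds 1, gave an adjusted p of 0.0113, over the limit of 0.01.

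TIMP3, the inhibitor that stays bound to the matrix and also blocks ADAM17 and several ADAMTS proteases, was higher in steatosis as well. TIMP3 (gene ID 396775, chr5:12185816-12242599, lying inside the coordinates of SYN3, whose mean was at most 0.148 FPKM in either group) had 23.26, 12.48, 10.14 and 6.84 FPKM in Control pools 1 to 4 and 38.19, 32.42, 34.49 and 30.08 in steatosis. The groups did not overlap, but the Control pools differed by a factor of 3.4, with pool 1 the highest and pool 4 the lowest. The log2 fold change was 1.49 (SE 0.30, 95% interval 0.82 to 2.16, adjusted p = 0.00581), and without Control pool 1 it was 1.81 (adjusted p = 0.000319). Leaving out Control pool 2 or 3, or any of the 4 steatosis pools, put the adjusted p at 0.0141 to 0.0187, with the log2 fold change between 1.41 and 1.54.

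TIMP1, the inhibitor most often measured as a sign of liver fibrosis, did not pass the limits. TIMP1 (gene ID 396862, chrX:42103251-42106289, inside the coordinates of SYN1, which had 0.15 to 0.48 FPKM over the 8 libraries) had 8.17, 7.39, 14.20 and 5.56 FPKM in Control pools 1 to 4 and 22.17, 14.31, 13.26 and 32.85 in steatosis. The groups overlapped through pool 3, where the steatosis value lay below the Control value, and steatosis pools 1 and 4 were above the other 6 libraries. The log2 fold change was 1.20 (adjusted p = 0.0234, SE 0.33), and without Control pool 3 it was 1.46 (adjusted p = 0.00918). TIMP4, which is known mainly from heart and fat, stayed under the filter with 0.25, 0.04, 0.05 and 0.05 FPKM in Control pools 1 to 4 and 0.12, 0.13, 0.10 and 0.05 in steatosis.

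**Figure D3:**
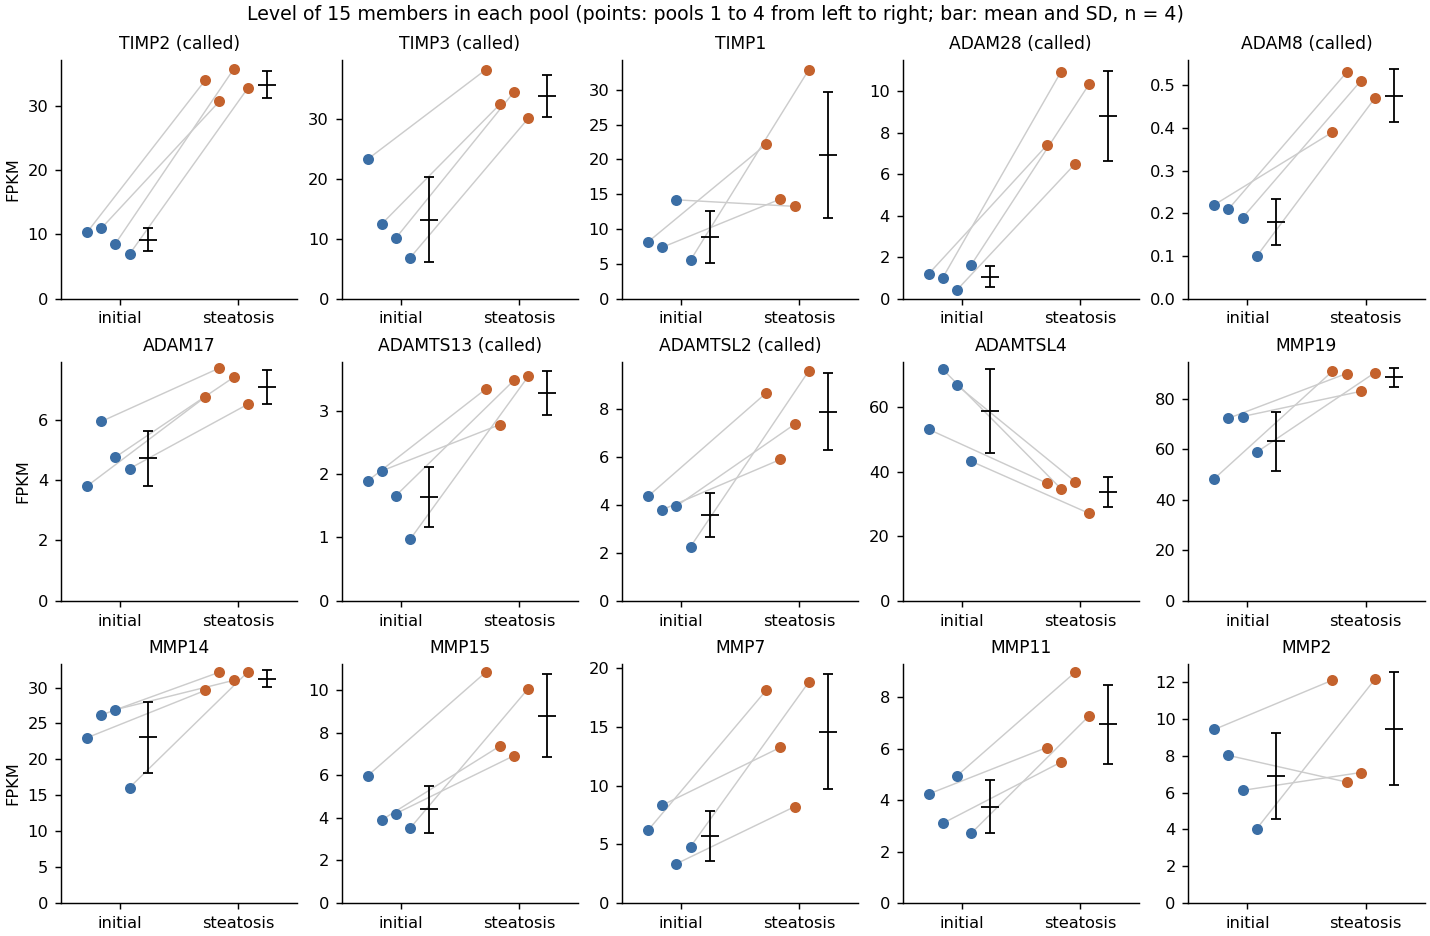
FPKM (vertical axes, each from 0) of 15 members in Control (blue) and Steatosis (orange) pools 1 to 4 from left to right, with grey lines joining pools of the same number and black bars for mean and SD (n = 4). TIMP2 and ADAM28 lie far apart between groups, TIMP1 and MMP2 overlap, and ADAMTSL4 is lower in all 4 steatosis pools.

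None of the 9 tested MMPs met both limits, although 5 of them (MMP7, MMP15, MMP11, MMP19 and MMP14) had an adjusted p under 0.05 with higher values in steatosis. MMP15, a membrane-type MMP, passed the limit on adjusted p but not that on the fold. MMP15 (gene ID 100514105, chr6:19890867-19912941) had 5.97, 3.90, 4.20 and 3.51 FPKM in Control pools 1 to 4 and 10.84, 7.37, 6.92 and 10.07 in steatosis. The groups did not overlap, and the log2 fold change of 0.99 (adjusted p = 0.00561, SE 0.20) lay just under the fold limit, as that of ADAMTS13, 1.0, lay just over it. Leaving out Control pool 1 (1.14, adjusted p = 0.00211) or Steatosis pool 3 (1.09, adjusted p = 0.00745) put MMP15 past both limits.

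MMP7, or matrilysin, is a small MMP without the hemopexin domain that is made by epithelia, bile ducts included. It lies on chromosome 9 at 33214590 to 33225080 (gene ID 397411) and had 6.19, 8.33, 3.34 and 4.80 FPKM in Control pools 1 to 4 and 18.12, 13.25, 8.20 and 18.81 in steatosis. Steatosis pools 1 and 4 were the highest and pool 3, at 8.20, lay under the highest Control pool, at 8.33, but each steatosis pool was above the Control pool of the same number. The log2 fold change was 1.35 (adjusted p = 0.0112, SE 0.31), and the fit with the pool as a replicate block gave an adjusted p of 0.00313 at the same fold, which would be called.

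The most abundant MMPs differed less in relative terms. MMP19, a secreted MMP found in many healthy tissues, had 48.33, 72.23, 72.94 and 58.87 FPKM in Control pools 1 to 4 and 90.84, 89.95, 82.90 and 90.31 in steatosis (gene ID 100518427, chr5:21279514-21285943). All 4 steatosis values lay above the Control values, with a log2 fold change of 0.51 (adjusted p = 0.0188, SE 0.13). MMP14, the membrane-type collagenase that activates pro-MMP2, had 23.01, 26.18, 26.92 and 16.07 FPKM in Control and 29.60, 32.14, 31.00 and 32.16 in steatosis (gene ID 397471, chr7:76174502-76185931). These groups did not overlap either, with a log2 fold change of 0.46 (adjusted p = 0.0463, SE 0.15), and 0.30 (adjusted p = 0.0344) without Control pool 4. MMP11, or stromelysin 3, had 4.24, 3.10, 4.95 and 2.71 FPKM in Control and 6.05, 5.48, 8.98 and 7.29 in steatosis, again with no overlap (log2 fold change 0.89, adjusted p = 0.0135, SE 0.21). Without Control pool 3, MMP11 passed both limits (1.03, adjusted p = 0.00838).

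MMP2, the gelatinase made by stellate cells and fibroblasts, overlapped between the groups. It had 9.43, 8.02, 6.12 and 4.04 FPKM in Control pools 1 to 4 and 12.11, 6.57, 7.09 and 12.16 in steatosis, a log2 fold change of 0.46 with a 95% interval from -0.18 to 1.11 (adjusted p = 0.252). MMP17, a membrane-type MMP, was the only tested MMP with a lower mean in steatosis. Its values were 0.93, 1.12, 1.27 and 0.52 FPKM in Control and 0.28, 0.79, 0.60 and 0.26 in steatosis, lower in each of the 4 pools of the same number but with overlapping groups (log2 fold change -0.91, adjusted p = 0.0796, SE 0.36). MMP24 and MMP28, at 0.348 to 1.22 FPKM by group mean, gave log2 fold changes of 0.42 and 0.28 with adjusted p of 0.111 and 0.398.

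By role, 0 of the 3 collagenases (MMP1, MMP8 and MMP13) passed the filter, and 4 of the 6 membrane-type MMPs did with 0 called. The collagenases, MMP3, MMP12, MMP20 and MMP7 lie together on chromosome 9 between 33214590 and 33616700, and MMP7 was the only gene of the 7 above the filter. MMP1, MMP12 and MMP20 were listed at 0 in all 4 Control pools, with at most 0.05, 0.12 and 0.02 FPKM in any steatosis pool. MMP3 had 0.07, 0.03, 0.07 and 0 FPKM in Control pools 1 to 4 and was listed at 0 in all 4 steatosis pools. MMP13, which cuts fibrillar collagen in rodent liver, had 1.54, 0.02, 0 and 0.02 FPKM in Control pools 1 to 4 and 0.08, 0, 0 and 0 in steatosis. Its only value above 0.1 FPKM was in Control pool 1, the pool with muscle and stomach transcripts, and the part of these in the value was not tested.

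Among the ADAMs, ADAM28 had the largest log2 fold change of the 35 members tested. ADAM28 is a membrane and secreted metalloprotease first described in lymphocytes. ADAM28 (gene ID 100152711, chr14:8375169-8438622) had 1.20, 1.02, 0.43 and 1.63 FPKM in Control pools 1 to 4 and 7.39, 10.93, 6.50 and 10.35 in steatosis. The groups were far apart, with a ratio of 3.99 between the lowest steatosis pool and the highest Control pool. The mean went from 1.07 ± 0.498 to 8.79 ± 2.18 FPKM, and the fitted log2 difference was 3.01 (SE 0.33, 95% interval 2.27 to 3.76, adjusted p = 0.000264). The call held with each library left out (2.67 to 3.24) and was over the limit only by limma's treat test (adjusted p = 0.0118). The neighbouring ADAM7, starting at 8484391 on the same chromosome, stayed at 0.07 FPKM or less in all 8 libraries.

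ADAM8, a metalloprotease of neutrophils and macrophages, was called at a much lower level. ADAM8 (gene ID 100156146, chr14:141221177-141233728) had 0.22, 0.21, 0.19 and 0.10 FPKM in Control pools 1 to 4 and 0.39, 0.53, 0.51 and 0.47 in steatosis. It passed the filter through its steatosis pools alone, so a difference was built into its passing. The log2 fold change was 1.06 (adjusted p = 0.0092, SE 0.23), and the fit with the pool as a replicate block gave an adjusted p of 0.0206 at the same fold. It also left the called set with any 1 library removed (adjusted p of 0.0112 to 0.0309).

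The ADAMs that release cytokines and growth factor precursors gave smaller log2 fold changes. ADAM17, which releases tumour necrosis factor from the membrane, had 3.80, 5.94, 4.76 and 4.38 FPKM in Control pools 1 to 4 and 6.75, 7.71, 7.40 and 6.51 in steatosis (gene ID 397343, chr3:126795513-126853995). No overlap was seen between the groups, and the log2 fold change was 0.59 (adjusted p = 0.0131, SE 0.14). Its coordinates overlap those of IAH1, which had 25.4 ± 1.71 FPKM in the initial state and 19.5 ± 1.05 in steatosis (adjusted p = 0.011). ADAM9, a widely expressed shedding protease, had 4.22, 5.55, 4.86 and 4.06 FPKM in Control and 5.40, 7.90, 7.73 and 6.01 in steatosis, with overlap between 5.40 and 5.55 (log2 fold change 0.52, adjusted p = 0.0349, SE 0.16). ADAM10, the shedding protease of Notch receptors, had a log2 fold change of 0.16 with a 95% interval of -0.28 to 0.60 (adjusted p = 0.57), and its sign, like those of ADAM19 and ADAM23, turned under the median ratio and upper quartile scalings. ADAM12 and ADAM15 gave -0.21 (adjusted p = 0.583) and 0.46 (adjusted p = 0.175).

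ADAM28 took the first place in its family in steatosis. It made up 25.1% ± 4.98 of the summed FPKM of the 15 ADAM genes there, ahead of ADAM17 with 20.4% ± 1.5 and ADAM9 with 19.3% ± 2.23. In the initial state ADAM17 and ADAM9 led with 22.6% ± 3.63 and 22.3% ± 2.01. The summed FPKM of the ADAMs was 17.8 to 23.3 in Control and 30.8 to 40.8 in steatosis, without overlap.

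Of the 10 tested ADAMTS proteases, only ADAMTS13 was called. ADAMTS13 cuts von Willebrand factor in blood and is known to come from hepatic stellate cells. ADAMTS13 (gene ID 100627950, chr1:273022014-273066916) had 1.89, 2.05, 1.66 and 0.97 FPKM in Control pools 1 to 4 and 3.34, 2.78, 3.48 and 3.54 in steatosis. The groups did not overlap, and the log2 fold change was 1.0 (adjusted p = 0.00795, SE 0.22), with 0.0153 as the adjusted p in the fit with the pool as a replicate block. Without Control pool 4, its lowest value, the log2 fold change was 0.78 (adjusted p = 0.00398). In the annotation its coordinates overlap CACFD1 (4.14 ± 0.93 FPKM in Control and 4.3 ± 0.965 in steatosis) and SLC2A6 (0.637 ± 0.105 and 1.06 ± 0.362), and how shared reads were split between these genes is not given in the sources used here.

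The other ADAMTS proteases were all under 2.3 FPKM by group mean. ADAMTS10, which takes part in the assembly of fibrillin microfibrils, had 1.51, 1.28, 1.38 and 0.85 FPKM in Control pools 1 to 4 and 1.87, 2.14, 2.30 and 2.70 in steatosis. Here too the groups were apart (log2 fold change 0.81, adjusted p = 0.0127, SE 0.19). ADAMTS3, a procollagen N-proteinase that also activates vascular endothelial growth factor C, had 0.38, 0.35, 0.44 and 0.27 FPKM in Control and 0.58, 0.66, 0.57 and 0.62 in steatosis, without overlap (log2 fold change 0.63, adjusted p = 0.0343). ADAMTS7, one of the pair that cuts cartilage oligomeric matrix protein, had 0.54, 0.69, 0.80 and 0.27 FPKM in Control and 0.86, 0.91, 1.17 and 1.12 in steatosis, without overlap (log2 fold change 0.79, adjusted p = 0.0565). Its coordinates overlap those of TBC1D2B, which was itself called higher (2.25 ± 0.133 against 4.93 ± 0.639 FPKM). ADAMTS12, the other of that pair, gave 0.67 (adjusted p = 0.0935) and the procollagen N-proteinase ADAMTS2 gave 0.63 (adjusted p = 0.103).

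Of the 7 proteoglycan-cutting ADAMTS proteases, 3 were tested and 0 called, with a median log2 fold change of 0.16. ADAMTS1 had 4.03, 1.93, 1.41 and 1.28 FPKM in Control pools 1 to 4 and 1.69, 1.75, 1.14 and 2.15 in steatosis. Its Control mean was carried by pool 1, and its log2 fold change of -0.23 (adjusted p = 0.631) changed sign without that pool. ADAMTS4 was likewise at 0.65 FPKM in Control pool 1 and 0.08, 0.07 and 0.01 in the other Control pools, with 0.22, 0.10, 0.08 and 0.34 in steatosis. ADAMTS5, under the filter, had 0.25, 0.17, 0.17 and 0.16 FPKM in Control and 0.12, 0.11, 0.10 and 0.10 in steatosis, the only untested member whose groups did not overlap.

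Of the 4 tested ADAMTS-like proteins, which bind microfibrils rather than cut, 1 was called higher and 0 lower. ADAMTSL2, which binds fibrillin and the latent form of transforming growth factor beta, lies near ADAMTS13 on chromosome 1, from 273119826 to 273155412 (gene ID 100628047). It had 4.37, 3.81, 3.96 and 2.27 FPKM in Control pools 1 to 4 and 8.69, 5.91, 7.38 and 9.61 in steatosis. All 4 steatosis pools were above the Control pools, and the log2 fold change was 1.13 (SE 0.22, 95% interval 0.64 to 1.62, adjusted p = 0.00473). The fit with the pool as a replicate block gave an adjusted p of 0.0105, just over the limit, and without Control pool 4 the log2 fold change was 0.93 (adjusted p = 0.00501).

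ADAMTSL4, a fibrillin-binding protein known for its role in the suspension of the eye lens, was the one member with an adjusted p under 0.05 and lower values in steatosis. ADAMTSL4 (gene ID 100514576, chr4:98577813-98589255) had 53.05, 71.59, 66.65 and 43.17 FPKM in Control pools 1 to 4 and 36.42, 34.68, 36.88 and 27.03 in steatosis. Every steatosis pool lay below every Control pool, and pool 4 was the lowest of its group in both. The log2 fold change was -0.78 (SE 0.17, 95% interval -1.15 to -0.40, adjusted p = 0.0082), short of the fold limit. Under the median ratio scaling it was -1.06 (adjusted p = 0.0013) and under the upper quartile scaling -1.01 (adjusted p = 0.00192), both past the limits. ADAMTSL4 made up 93.2% ± 1.68 of the summed FPKM of the 5 ADAMTSL genes in the initial state and 79.1% ± 5.26 in steatosis, while ADAMTSL2 went from 5.75% ± 1.18 to 18.8% ± 4.87. ADAMTSL1 and ADAMTSL3 both gave 0.44 (adjusted p = 0.215 and 0.312).

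Sums per library set the transcripts of the inhibitors beside those of the MMPs in each pool. These are sums of RNA, without the ADAM and ADAMTS proteases that TIMPs also block. Protein and enzyme activity of these genes were not measured here. The 4 TIMPs added up to 42.01, 30.85, 32.96 and 19.40 FPKM in Control pools 1 to 4 and 94.43, 77.53, 83.50 and 95.68 in steatosis. The 17 MMPs added up to 101.4, 124.7, 121.5 and 92.01 FPKM in Control and 170.3, 157.9, 148.1 and 173.1 in steatosis, with MMP19 alone making up 57.4% ± 6.95 and 54.6% ± 2.23. Neither sum overlapped between the groups. The ratio of the TIMP sum to the MMP sum was 0.414, 0.247, 0.271 and 0.211 in Control and 0.554, 0.491, 0.564 and 0.553 in steatosis. The highest Control ratio was that of pool 1, and the other 3 Control pools lay between 0.211 and 0.271. The MMP sum leaves out 1 gene that matched by symbol, and also MMP23B, whose symbol ends in a letter. MMP23B had 1.32 ± 0.422 FPKM in the initial state and 2.61 ± 1.3 in steatosis (log2 fold change 0.84, adjusted p = 0.12). No test was made on these sums because the members were chosen with results of the data known.

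**Figure D4:**
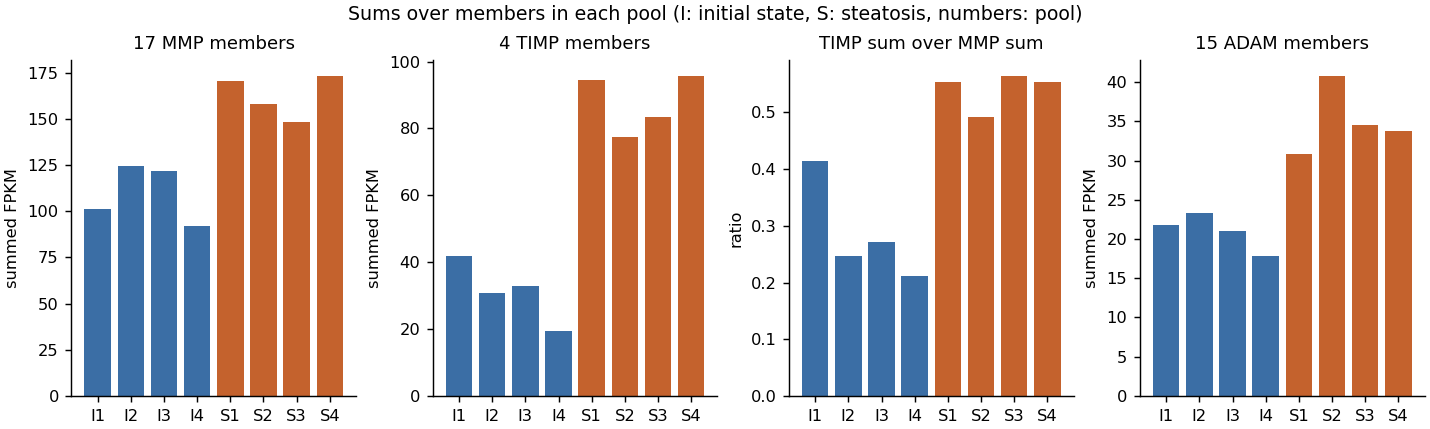
Summed FPKM of the 17 MMP, 4 TIMP and 15 ADAM genes, and the ratio of the TIMP to the MMP sum, in each pool (I, initial state, blue; S, steatosis, orange). In all 4 panels each steatosis bar is above each bar of the initial state, and the ratio is 0.211 to 0.414 against 0.491 to 0.564.

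Genes that activate or restrain these proteases but lie outside the rule were also counted. Of 28 listed, 26 were tested, 5 were called higher (19.2%, against 6.01% of all genes tested) and 0 lower. A positive log2 fold change was seen in 24 (92.3%, against 78.7% of all genes tested), with a median of 0.63. The 5 were PLAU, the urokinase that turns plasminogen into plasmin (0.893 ± 0.261 to 3.89 ± 0.74 FPKM, log2 fold change 2.02, adjusted p = 0.000212), PLAT, the tissue plasminogen activator (0.932 ± 0.578 to 2.85 ± 0.542, 1.64, adjusted p = 0.00537), SERPINE2, an inhibitor of both (1.08 ± 0.286 to 4.53 ± 2.18, 1.87, adjusted p = 0.00278), and RHBDF1 and RHBDF2, the partners that ADAM17 needs to mature. RHBDF1 went from 2.57 ± 0.664 to 6.49 ± 1.64 FPKM (1.30, adjusted p = 0.00258) and RHBDF2 from 3.41 ± 0.649 to 6.9 ± 0.469 FPKM (1.01, adjusted p = 0.000786). Among 15 genes of matrix substrates, 14 were tested and only BGN, the small proteoglycan biglycan, was called (46.7 ± 8.25 to 105 ± 28.7 FPKM, 1.14, adjusted p = 0.00275). The median over these substrates was 0.57.

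Cell type markers moved with the members in part. In bulk RNA, fewer cells of a type and less RNA per cell cannot be told apart. The summed FPKM of 10 macrophage markers was 719 to 983 in Control and 1099 to 1260 in steatosis, and 3 of the 10 were called higher (CD68, MARCO and TYROBP). Without these 3 the sums overlapped, at 671 to 922 and 887 to 1011, with C1QA, C1QB and CD5L the most abundant of the rest. By single marker, 7 of the 10 were higher without overlap, against 29.6% of all genes tested. ADGRE1, AIF1, CSF1R and C1QB were among these 7, with log2 fold changes of 0.62 to 0.9 (adjusted p of 0.00101 to 0.00723). CD163 had 0.32 (adjusted p = 0.0889). CD5L (190 ± 36.7 against 148 ± 10.4 FPKM, adjusted p = 0.0709) was lower without overlap, and C1QA had a log2 fold change of 0.07. The 5 T and NK cell markers summed to 29.4 to 53.6 and 62.9 to 70.2 with NKG7 called, but the other 4 overlapped at 18.3 to 38.5 and 29.3 to 32.2. The 6 endothelial markers summed to 129 to 160 and 174 to 180, with 0 called. The 9 markers of stellate cells and fibroblasts overlapped in sum, with 42.4 to 204 in Control and 67.4 to 170 in steatosis. The 204 was Control pool 1, where DES had 71.55 FPKM against 3.23 to 7.39 in the other Control pools. The part of muscle transcripts in it was not tested. LRAT alone was called, and 3 of the 9 were higher without overlap, against 29.6% of all genes tested. These were LRAT, PDGFRB (log2 fold change 0.73, adjusted p = 0.0183) and RELN (0.83, adjusted p = 0.00823). A positive log2 fold change was seen in 5 of the 9. LUM, with 1.58 ± 1.04 FPKM in the initial state and 0.44 ± 0.298 in steatosis, did not reach the limits (log2 fold change -1.67, adjusted p = 0.0361). Neutrophil markers summed to 5.77 to 12.3 and 9.2 to 14.7, with CSF3R called and MPO and ELANE under the filter. The 5 hepatocyte markers summed to 59377 to 91241 and 51214 to 60878 with 0 called, and the 3 mesothelial markers analysed were under the filter with sums of at most 0.86. The part of these cell types in the members' values was not tested.

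Within steatosis, pools 1 and 4 stood above pools 2 and 3 for 9 of the 35 members tested (TIMP1, MMP7, MMP2, MMP15, MMP19, MMP28, ADAMTS2, ADAMTSL3 and the called ADAMTSL2) and below them for 10, among which were ADAM17, ADAM9 and the called ADAM8. Pools 1 and 4 also had the higher summed FPKM of stellate and fibroblast markers (125.2 and 170.5 against 67.4 and 78.57) and of the 3 cholangiocyte markers analysed (17.06 and 16.77 against 6.76 and 7.3, with 0 of the 3 called between groups). The stellate and fibroblast markers did not all follow their sum. COL1A1, DCN, ACTA2, PDGFRB and LUM were higher in pools 1 and 4 than in pools 2 and 3. LRAT (4.21 and 3.69 against 4.45 and 4.33) and RELN (5.58 and 5.95 against 6.52 and 8.78) were lower, and DES and RGS5 were mixed. For TIMP2 and ADAM28 the order of the pools was different, with the highest TIMP2 value in pool 3 and the highest ADAM28 value in pool 2. Whether the marker sums bear on these members was not tested. The split of the pools was picked after the values were seen, and its share over all genes tested is not given here. Without that share, the counts of 9 above and 10 below cannot be read as a trait of the members or as its absence.

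The remaining members were low. Apart from MMP13, ADAMTS4 and ADAM11, no member under the filter exceeded 0.36 FPKM in any library, and ADAM11, an ADAM without protease activity, reached 0.55 in Control pool 2. In 15 of the 25 members under the filter the highest Control value was in pool 1, tied with other pools for MMP3 and MMP8. The share over all genes under the filter is not given here. ADAM29, a testis gene, was listed at 0 in all 4 steatosis pools and at 0.01 FPKM in Control pool 4 only. ADAM2 and ADAM7, known from sperm and epididymis, stayed at 0.14 FPKM or less.

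**Figure D5:**
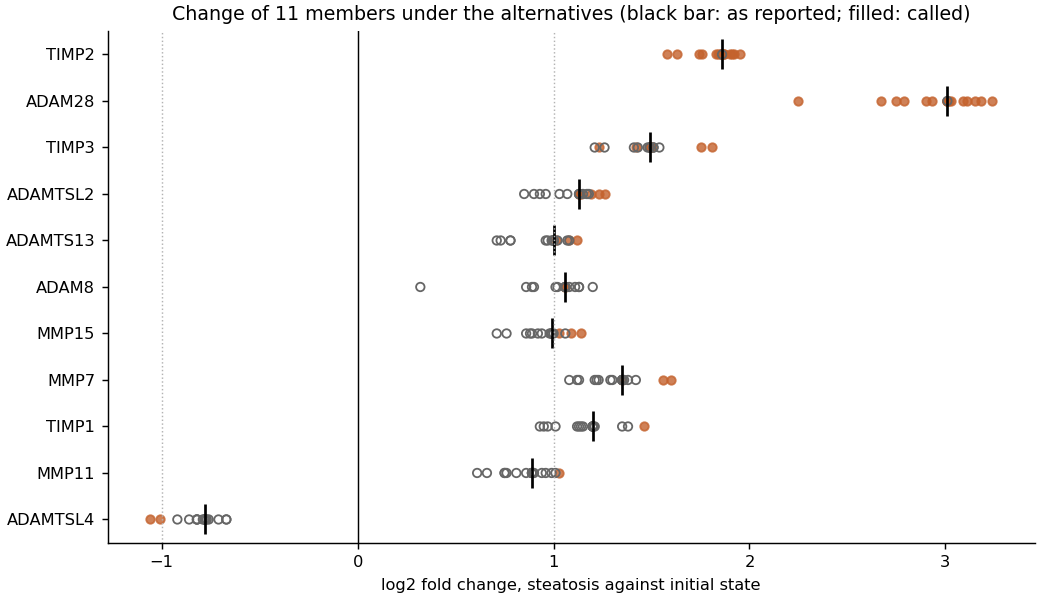
Log2 fold change (horizontal axis, steatosis against the initial state) of 11 members as reported (black bar) and under each alternative (1 circle each), filled where the change exceeds 1 in size with an adjusted p under 0.01; dotted lines mark the fold limit. TIMP2, ADAM28, TIMP3 and MMP7 stay right of 1 throughout, while MMP15, ADAMTS13, ADAM8, ADAMTSL2, TIMP1 and MMP11 lie on both sides of it.

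Only TIMP2 and ADAM28 were called in every fit with a library left out. The other 4 called members were lost in 5 or more of these 8 fits each, while the direction of the 6 called members stayed the same under the alternatives tried.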

How the data were processed

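Libraries of poly-A RNA were read as pairs of 100 bp. The authors filtered the reads, mapped them with HISAT2 2.0.4 to the pig genome Sscrofa11.1, assembled transcripts and estimated expression with Bowtie2 2.2.5 and RSEM 1.2.12. The authors deposited FPKM for the 8 libraries, and no scaling between libraries is stated. They also deposited pairwise comparisons (fold changes, p and FDR values), which were not used apart from transcript lengths. Read numbers were not used here, and the SD over pools serves as the precision of each value.

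The fit was made with limma 3.58.1 (R 4.3.3) over 13175 genes that reached 0.3 FPKM in 4 or more of the 8 libraries. Values were log2(FPKM + 0.1), the variance was modelled as a trend on the mean, the design held the group alone, and p-values were adjusted by Benjamini-Hochberg. The main p-values therefore leave out the pairing of the libraries, which the fit with a replicate block takes in. The limits (adjusted p below 0.01, log2 fold change beyond 1) are those of the study. The main p-values set the difference between the groups against the spread of the pools within each group. The fit was tested on simulated data. Sums, shares and plots were made with Python 3.11.15, numpy 2.4.6, pandas 2.3.3, scipy 1.17.1 and matplotlib 3.10.9. Gene positions are from RefSeq, Sscrofa11.1, and strand-specific counting is not given in the sources used here.

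Pool numbers come from the labels. For pools 1 to 4, the Control and Steatosis libraries of one number deviated together from their group means, with correlations over genes of 0.163, 0.35, 0.317 and 0.247. The study describes both groups as the same animals but does not state which pigs each pool held. The numbers were taken to pair the libraries. The fit with this block was an alternative, beside 3 scalings, other filters and limits, a pseudocount of 1, no variance trend and each library left out. Leaving out pool 1 of both groups was added after the values were seen.

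Values in every library were given for called members, all TIMPs, the 3 most abundant members of the MMP, ADAM and ADAMTS with ADAMTSL families, and for uncalled members whose groups do not overlap (up to 8). MMP7, MMP2, MMP17, MMP3, MMP13, ADAMTS4, ADAMTS5, the pool order in steatosis, and the marker genes CD5L, C1QA and LUM, were described after their values were seen. The members and gene lists were chosen with earlier results of these data known. A split of the ADAMs by their catalytic sequence was not analysed here.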

Additional observations from a re-analysis of the deposited data

Results flagged for a closer look

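A sample far from the others of its group was looked for in the named members, with Dixon's test at its 95% critical value for 4 pools. It marked 2 of 38 groups, and chance marks about 1 in 20. Outside these 38 groups, it marked 9 other members in Control and 5 in steatosis. MMP19 had 82.9 FPKM in Steatosis pool 3, below the other 3 steatosis pools (gap over range 0.888), and this value was still above the 4 Control values. TIMP4 had 0.25 FPKM in Control pool 1, above the other 3 Control pools (gap over range 0.952), in the pool that also held transcripts of skeletal muscle and stomach mucosa.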

How the results depend on the processing

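The count of members called higher, 6, fell to 2 under the median ratio and the upper quartile scalings, to 3 with a pseudocount of 1 and to 0 by limma's treat test, and it was 16 by adjusted p under 0.05 with no limit on the fold change. The count of members called lower, 0, became 1 under both of these scalings and under the looser limit (ADAMTSL4 each time). With 1 library left out, 2 to 6 members were called higher and 0 to 0 lower: 3 without Control pool 4, 2 without Steatosis pool 1, 3 without Steatosis pool 2 and 2 without Steatosis pool 4. Without pool 1 of both groups 4 were called higher, and a scaling to a common sum, the filter of 1 FPKM and no filter gave 5, 5 and 4. With the pool number as a replicate block 4 were called, ADAM8, ADAMTS13 and ADAMTSL2 being lost and MMP7 gained, and the block changed no other call. Apart from the looser limit, the shares of all genes called under these alternatives are not given here, so the counts stand without a background. Of the 321 values of 18 named members under the alternatives, 260 stayed on their side of the limits, 51 were no longer called, 10 became called and 0 changed direction. The cause of these moves was not tested, apart from the fold limit of limma's treat test, which is stricter by construction. Under the median ratio and upper quartile scalings, ADAM10, ADAM19, ADAM23 and ADAMTS9 changed sign. FPKM under about 0.1 rest on few reads, since 1 step at 1 kb was worth 0.0548 to 0.0574 FPKM.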
